A study of Mus musculus with 18 samples.

Results

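Lysosomes are the acidic compartments in which cells break down proteins, lipids and sugars, and 41 genes of this machinery are described here in cultured smooth muscle cells from the mouse aorta. They were selected by gene symbol, with earlier results of these data known. The 41 are 9 cathepsins, 9 glycosidases, 9 other hydrolases or lumenal proteins, 5 membrane proteins, 7 genes of the vacuolar proton pump (V-ATPase), the transcription factor Tfeb and the autophagy receptor Sqstm1. All 41 were found in the table of 57180 genes, and all 41 were among the 15832 genes that passed a filter on low counts. The cells were smooth muscle cells of the thoracic aorta of C57BL/6 mice. The 6 groups of 3 libraries were Itgav siRNA with TGF-β, scramble siRNA with TGF-β, Itgav siRNA with PDGF-BB, scramble siRNA with PDGF-BB, Itgav siRNA without a growth factor, and scramble siRNA without a growth factor. Scramble siRNA is a control with no intended target, and every group carried 1 of these siRNAs. Itgav encodes the αV chain of integrins, receptors for matrix proteins and for latent TGF-β, and the series is about this integrin in aortic aneurysm and dissection. The sources used here give no doses, no times and no siRNA sequence. Whether the libraries of a group came from separate cultures is not stated either, so the spread on which the p-values rest may be technical.

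Lysosomal hydrolases are made in the endoplasmic reticulum, and many are tagged with mannose 6-phosphate and carried to the lysosome, where the low pH set by the V-ATPase activates them. TFEB and its relatives MITF and TFE3 are known to switch on lysosomal and autophagy genes when the nutrient-sensing kinase complex mTORC1 is inactive, and they bind an E-box core, CACGTG, best in the form TCACGTGA. In the arterial wall, cathepsins K, L and S are known for cleaving elastin and collagen when they are released from smooth muscle cells and macrophages.

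The E-box core was searched for in RefSeq promoter windows (GRCm38.p6), each from 250 bases before to 50 bases after a gene's start, and 35 of the 41 genes had an entry. CACGTG, which reads the same on both strands, was in a window of 13 of these 35 genes (37.1%), against 2187 of all 27025 genes with a window (8.1%). The longer TCACGTGA, which always contains CACGTG, was in windows of 6 of the 35 genes (17.1%), against 304 of all 27025 (1.1%). These matches are a description of the windows, and binding was not measured. The 6 genes were Atp6v0d1, Atp6v1a, Ctsa, Ctsd, Gla and Mcoln1. The stretches printed here are those of Gla and Lamp1, which hold several copies, and of Gaa, Ctsf and Glb1, which hold 1, and capitals mark CACGTG. Ctsa, Ctsd and Mcoln1 also have more than 1 copy in their windows and are not printed. Gla (minus strand, chrX:134601174-134601252) has 2 copies, both within TCACGTGA, that begin 227 and 194 bases before its start in the RefSeq window. Its start in GENCODE M21, chrX:134601125, is a different one and lies nearer to the copies. Lamp1 (plus strand, chr8:13159080-13159158) has 4 copies within 61 bases of its start. The other 3 stretches lie at chr11:119267803-119267848 (Gaa), chr19:4855066-4855111 (Ctsf) and chr9:114401010-114401055 (Glb1), all on the plus strand, and all 5 stretches end before the gene's start in GENCODE M21.
Gla: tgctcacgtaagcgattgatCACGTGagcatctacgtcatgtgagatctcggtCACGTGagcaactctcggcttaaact
Lamp1: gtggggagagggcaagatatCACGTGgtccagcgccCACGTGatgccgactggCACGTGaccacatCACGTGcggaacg
Gaa: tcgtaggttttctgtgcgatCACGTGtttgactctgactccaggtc
Ctsf: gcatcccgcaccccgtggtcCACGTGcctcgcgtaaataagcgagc
Glb1: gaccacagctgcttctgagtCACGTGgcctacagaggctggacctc

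Itgav itself, as a check of the labels, was at 26.1, 29.7 and 25.3 CPM (counts scaled to the library total after TMM adjustment, edgeR's correction for library composition) in the Itgav siRNA libraries with TGF-β, against 548, 553 and 472 CPM with scramble siRNA and TGF-β. In PDGF-BB cells it was at 19.1, 23.9 and 25.5 CPM with Itgav siRNA, against 307, 336 and 319 CPM with scramble siRNA. In unstimulated cells it was at 14.8, 14.1 and 16.4 CPM with Itgav siRNA, against 300.2, 326 and 323 CPM with scramble siRNA. Every siRNA library was below every scramble library. Library totals lay between 17705072 and 21592916 counts, and the biological coefficient of variation was 6.01%. Replicate 1 of the scramble PDGF-BB group stood apart from its 2 partners on the fourth principal component (23.6, against 0.880 and 5.05). The smooth muscle markers Acta2, Tagln and Myh11 were present in every group, and their list of 7 genes summed to 337 to 7024 CPM per library. Interferon-response genes moved with the siRNA: Ifit3 averaged 244 ± 30.8 CPM with Itgav siRNA and TGF-β, against 30.7 ± 4.66 CPM with scramble siRNA and TGF-β (SD, n = 3 each). With PDGF-BB Ifit3 averaged 1976 ± 424 CPM with Itgav siRNA, against 37.96 ± 6.74 CPM with scramble siRNA. In unstimulated cells Ifit3 averaged 3080 ± 217 CPM with Itgav siRNA, against 78.0 ± 22.4 CPM with scramble siRNA. Loss of Itgav and other effects of this siRNA cannot be told apart, and the part of the interferon genes in the results was not tested. In bulk RNA, fewer cells of a type and less RNA per cell cannot be told apart.

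**Figure D1:**
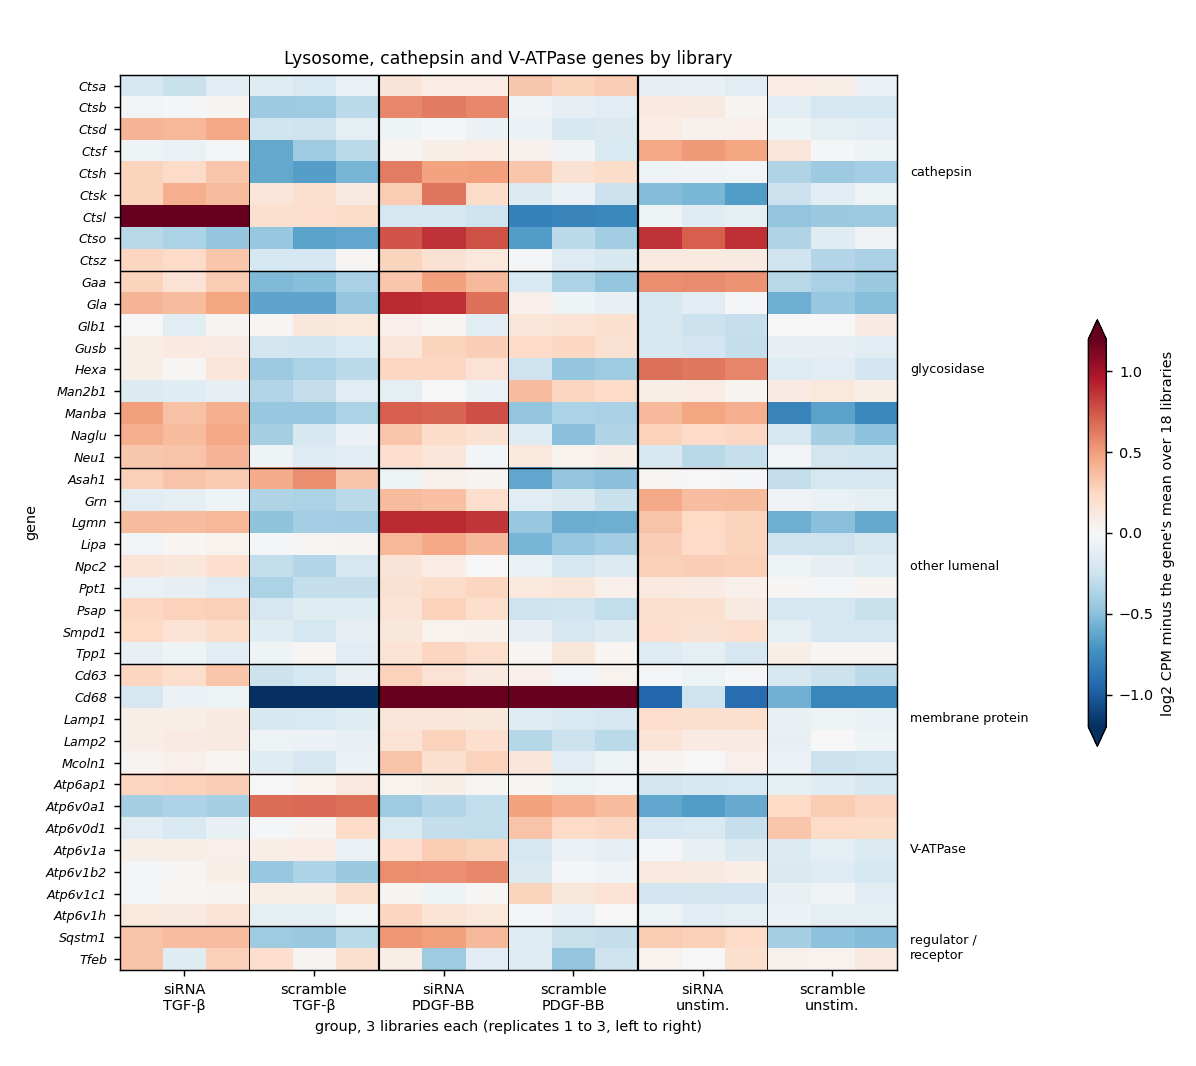
Heat map of the 41 genes (rows, grouped by role) in the 18 libraries (columns), as log2 CPM minus the gene's mean over all libraries. The Itgav siRNA libraries are redder than the scramble libraries of the same medium for most rows, while the row of Atp6v0a1 is bluer, and Cd68 is highest in the 6 PDGF-BB libraries.

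Levels of different genes were compared per length, as TPM (counts scaled to transcript length and library total), in unstimulated scramble cells (mean ± SD, n = 3). The aspartic protease Ctsd was highest at 2368 ± 44.5 TPM. It was followed by the membrane glycoprotein Lamp1 at 1179 ± 27.3 TPM, the tetraspanin Cd63 at 957 ± 30.4 TPM, the cysteine protease Ctsl at 844 ± 27.3 TPM and the sphingolipid activator precursor Psap at 746 ± 16.1 TPM. Ctsb (499 ± 10.7 TPM), Ctsh (444 ± 1.95 TPM) and Sqstm1 (436 ± 11.9 TPM) came next, and the last 2 differed by less than their spread. At the low end were Ctsk (24.5 ± 2.01 TPM), the collagenolytic cathepsin, then Ctso (12.4 ± 1.57 TPM), the β-mannosidase gene Manba (10.9 ± 0.797 TPM), Tfeb (6.803 ± 0.476 TPM) and the macrophage-associated Cd68 (3.48 ± 0.374 TPM). Gla was not ranked, since only 0.840% of its counts were assigned to transcripts with a known length. Exons of some of the genes overlap those of other annotated genes, so their counts are less certain. The shares of exonic bases were 34.4% for Ctsd, 26.8% for Ctsl, 17.4% for Ctsa, 17.3% for Sqstm1, 12.8% each for Ctsb and Hexa, and 9.3% for Lamp1. The overlap of Ctsd is with a gene on the same strand, and that of Ctsl with genes on both strands. For the others it is with genes on the opposite strand, and the sources used here do not say whether counting used the strand.

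Most of these genes were higher with Itgav siRNA than with scramble siRNA in each of the 3 media, where media means TGF-β, PDGF-BB or no growth factor. A gene was called where its adjusted p (Benjamini-Hochberg, over all 15832 genes tested) was under 0.05 in the quasi-likelihood test of edgeR, and errors after a log2 fold change are standard errors. With TGF-β, 28 of the 41 genes were higher with Itgav siRNA and 3 were lower, where 48.4% of all genes were called, 24.1% higher and 24.3% lower. With PDGF-BB 29 were higher and 6 lower, where 59.3% of all genes were called, 29.4% higher and 29.9% lower. In unstimulated cells 25 were higher and 8 lower, where 53.4% of all genes were called, 25.9% higher and 27.5% lower. The median log2 fold change of the 41 genes was 0.31 with TGF-β, 0.28 with PDGF-BB and 0.23 in unstimulated cells, and that of all genes was 0.01 in each medium. Most of the called changes were small. Called changes of at least 2-fold, in either direction, were 3 of the 41 with TGF-β, 3 with PDGF-BB and 2 in unstimulated cells. Among all 15832 genes they were 1569, 1988 and 1644 in the same order. The shares of all genes were not matched for expression level. The 3 comparisons use separate libraries, and 21 of the 41 genes were called higher in all 3, against 12.9% of all genes. They were Ctsb, Ctsd, Ctsh, Ctsl and Ctsz of the cathepsins, Gaa, Gla, Hexa, Manba and Naglu of the glycosidases, Grn, Lgmn, Npc2, Psap and Smpd1 of the other lumenal proteins, the membrane proteins Cd63, Lamp1, Lamp2 and Mcoln1, the pump subunit Atp6v1b2, and Sqstm1. Only the pump subunits Atp6v0a1 and Atp6v0d1 were called lower in all 3, against 14.9% of all genes. Asah1, Ctsk, Gusb and Tpp1 were called higher in 1 medium or more and lower in another, and Tfeb was called in none. For these 41 genes, a siRNA difference that is not given for a medium did not pass the test. Overlap of libraries is described gene by gene, and its share over all genes was not counted.

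**Figure D2:**
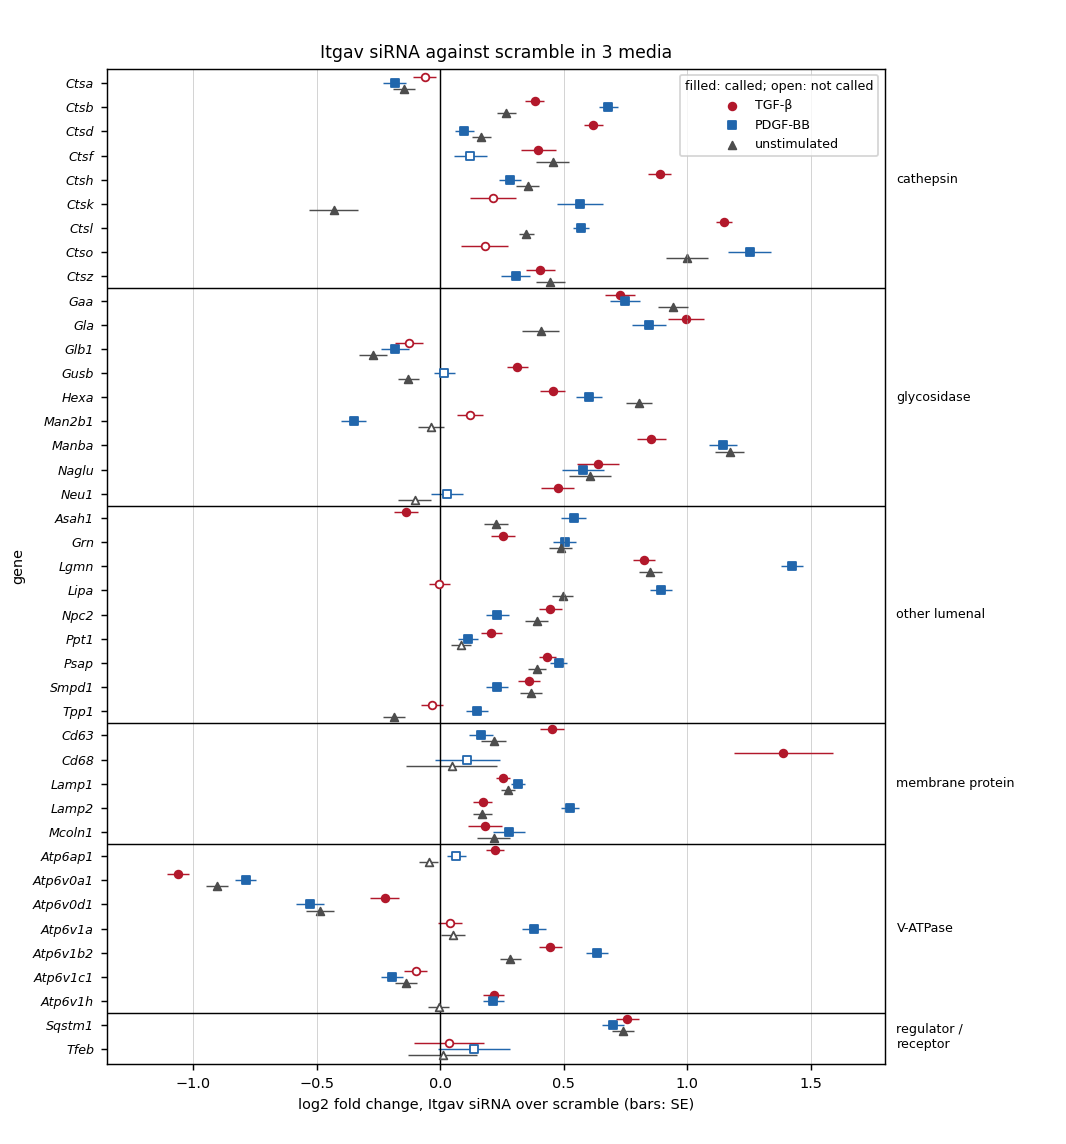
Log2 fold changes of Itgav siRNA over scramble siRNA (horizontal axis, bars are standard errors) for the 41 genes (vertical axis, by role) with TGF-β, with PDGF-BB and in unstimulated cells. Filled symbols passed the test; 21 genes lie right of 0 with 3 filled symbols, and Atp6v0a1 and Atp6v0d1 lie left of 0 with 3 filled symbols.

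Among the 9 cathepsins, the proteases of the lysosome, 6 were higher and none lower with Itgav siRNA in TGF-β cells. In PDGF-BB cells 7 were higher and 1 lower, and in unstimulated cells 7 were higher and 2 lower. The shares of all genes in the same order were 24.1%, 29.4% and 25.9% called higher and 24.3%, 29.9% and 27.5% called lower. Ctsl (chr13:64359337-64370890, minus strand) had the largest rise of the cathepsins with TGF-β. It was at 2757, 2740 and 2861 CPM with Itgav siRNA and TGF-β, against 1243, 1259 and 1267 CPM with scramble siRNA and TGF-β, a 2.22-fold rise (log2 1.15 ± 0.0316, edgeR adjusted p = 1.76e-17). Its PDGF-BB libraries were at 945, 937 and 917 CPM with Itgav siRNA, against 621, 629 and 635 CPM with scramble siRNA, and in unstimulated cells at 1046, 986 and 1008 CPM, against 783, 799.7 and 804 CPM. The libraries of the 2 siRNAs did not overlap in any medium, and the log2 fold changes were 0.57 ± 0.0315 with PDGF-BB and 0.35 ± 0.0314 without a growth factor. Ctsb, an endo- and exopeptidase, was at 1360, 1403 and 1361 CPM with Itgav siRNA and PDGF-BB, against 883, 851 and 837 CPM with scramble siRNA and PDGF-BB. Its log2 fold changes of 0.38 ± 0.0388 with TGF-β, 0.68 ± 0.0388 with PDGF-BB and 0.27 ± 0.0387 in unstimulated cells all passed. Ctsd, an aspartic protease, was at 3568, 3545 and 3695 CPM with Itgav siRNA and TGF-β, against 2280, 2269 and 2481 CPM with scramble siRNA and TGF-β (log2 0.62 ± 0.0384). Its log2 fold changes were 0.10 ± 0.0383 with PDGF-BB and 0.17 ± 0.0383 in unstimulated cells. The PDGF-BB call of Ctsd was lost on leaving out scramble PDGF-BB replicate 2 (0.08, adjusted p = 0.126), scramble PDGF-BB replicate 3 (0.08, adjusted p = 0.108) or Itgav siRNA PDGF-BB replicate 2 (0.09, adjusted p = 0.104).

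Ctsh, an aminopeptidase, was at 468, 457 and 488 CPM with Itgav siRNA and TGF-β, against 254, 246 and 263 CPM with scramble siRNA and TGF-β. Its log2 fold changes of 0.89 ± 0.0456 with TGF-β, 0.28 ± 0.0447 with PDGF-BB and 0.35 ± 0.0452 in unstimulated cells all passed in edgeR. Ctsz, a carboxypeptidase, had log2 fold changes of 0.41 ± 0.0587 with TGF-β, 0.31 ± 0.0585 with PDGF-BB and 0.45 ± 0.0587 in unstimulated cells. Ctsf rose with TGF-β (0.40 ± 0.0714, adjusted p = 7.46e-05 in edgeR) and in unstimulated cells (0.46 ± 0.0669), and its value with PDGF-BB was 0.12 ± 0.0682 (adjusted p = 0.128). Ctsa is a serine carboxypeptidase that also protects other lysosomal enzymes. It was lower with PDGF-BB (-0.18 ± 0.0452) and in unstimulated cells (-0.15 ± 0.0454), with -0.06 ± 0.0458 (adjusted p = 0.277) with TGF-β. The call of Ctsa in unstimulated cells was lost on leaving out scramble unstimulated replicate 1 (-0.12, adjusted p = 0.0521) or replicate 2 (-0.12, adjusted p = 0.0626).

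Ctso and Ctsk were the cathepsins of lowest level. Ctso was at 19.04, 18.4 and 17.4 CPM with Itgav siRNA and TGF-β, against 17.5, 15.4 and 15.6 CPM with scramble siRNA and TGF-β, and these libraries overlapped. With PDGF-BB it was at 40.5, 43.7 and 40.7 CPM with Itgav siRNA, against 15.1, 19.3 and 17.99 CPM with scramble siRNA, and in unstimulated cells at 43.9, 39.4 and 44.1 CPM, against 18.7, 21.8 and 23.2 CPM. In both of these media every siRNA library was above every scramble library, with log2 fold changes of 1.25 ± 0.0865 (adjusted p = 4.43e-11) and 1.0003 ± 0.0847 (adjusted p = 1.54e-09) in edgeR, against 0.18 ± 0.0959 (adjusted p = 0.13) with TGF-β. Ctsk, known in osteoclasts for dissolving bone collagen, was at 14.2, 13.9 and 12.8 CPM with Itgav siRNA in unstimulated cells, against 17.1, 18.6 and 19.6 CPM with scramble siRNA, a fall (-0.43 ± 0.0983, adjusted p = 0.000808). In PDGF-BB cells it was at 25.2, 31.7 and 23.7 CPM with Itgav siRNA, against 18.2, 19.4 and 17.02 CPM with scramble siRNA, a rise (0.57 ± 0.0918, adjusted p = 1.61e-05). With TGF-β it was at 24.6, 27.6 and 26.5 CPM with Itgav siRNA, against 22.6, 23.3 and 21.99 CPM with scramble siRNA (0.21 ± 0.0921, adjusted p = 0.0615). The TGF-β libraries did not overlap, and the adjusted p lay on either side of the threshold across the alternative settings.

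**Figure D3:**
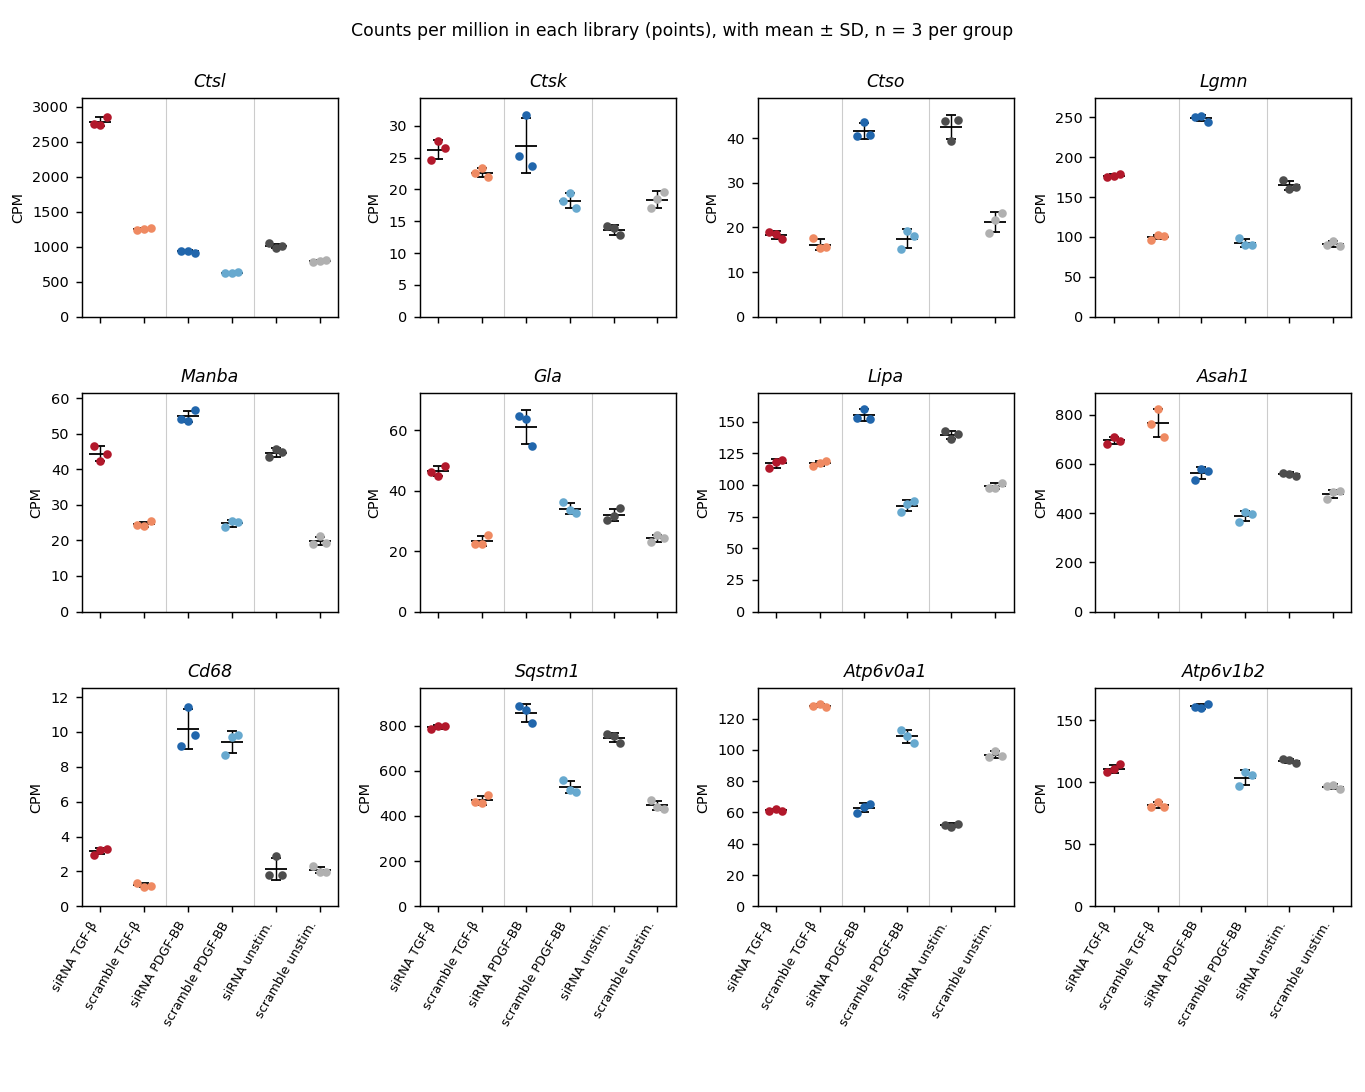
CPM of 12 genes in each library (points, with mean ± SD, n = 3 per group), with the 3 media side by side and Itgav siRNA left of scramble siRNA in each. Ctsl stands highest with Itgav siRNA and TGF-β, Ctso is raised by the siRNA with PDGF-BB and without a growth factor but overlaps with TGF-β, and Atp6v0a1 is lower with the siRNA in every medium.

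Of the 9 glycosidases, which remove sugars from glycoproteins, glycolipids and glycogen, 7 were higher and none lower with Itgav siRNA in TGF-β cells. In PDGF-BB cells 5 were higher and 2 lower, and in unstimulated cells 5 were higher and 2 lower. The shares of all genes in the same order were 24.1%, 29.4% and 25.9% called higher and 24.3%, 29.9% and 27.5% called lower. Manba, β-mannosidase, was at 46.4, 42.3 and 44.4 CPM with Itgav siRNA and TGF-β, against 24.2, 24.1 and 25.4 CPM with scramble siRNA and TGF-β. Its PDGF-BB libraries were at 54.3, 53.7 and 56.6 CPM with Itgav siRNA, against 23.8, 25.5 and 25.2 CPM, and in unstimulated cells at 43.4, 45.8 and 44.9 CPM, against 18.9, 21.3 and 19.3 CPM. Every siRNA library was above every scramble library, with log2 fold changes of 0.85 ± 0.0585 with TGF-β, 1.14 ± 0.0565 with PDGF-BB and 1.17 ± 0.0586 in unstimulated cells. Gaa, the α-glucosidase of glycogen that is lost in Pompe disease, was at 242, 243 and 238 CPM with Itgav siRNA in unstimulated cells, against 131, 125 and 120.3 CPM with scramble siRNA. It had log2 fold changes of 0.73 ± 0.0616 with TGF-β, 0.75 ± 0.0608 with PDGF-BB and 0.94 ± 0.0609 in unstimulated cells. Gla encodes the α-galactosidase lost in Fabry disease. It was at 46.1, 44.98 and 48.2 CPM with Itgav siRNA and TGF-β, against 22.4, 22.4 and 25.2 CPM with scramble siRNA and TGF-β. It had log2 fold changes of 0.99 ± 0.074 with TGF-β, 0.84 ± 0.0688 with PDGF-BB and 0.41 ± 0.0741 in unstimulated cells. Its libraries did not overlap in any medium.

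Hexa, the α subunit of β-hexosaminidase that is lost in Tay-Sachs disease, was at 303, 297 and 288 CPM with Itgav siRNA in unstimulated cells, against 171, 174 and 163 CPM with scramble siRNA. It had log2 fold changes of 0.46 ± 0.0524 with TGF-β, 0.60 ± 0.052 with PDGF-BB and 0.81 ± 0.0517 in unstimulated cells, all called by edgeR. Naglu, an enzyme of heparan sulfate breakdown, rose in all 3 media (0.64 ± 0.0848 with TGF-β, 0.58 ± 0.0844 with PDGF-BB and 0.61 ± 0.0846 in unstimulated cells). Neu1, the lysosomal sialidase, rose with TGF-β (0.48 ± 0.0658, adjusted p = 2.76e-06), and its values were 0.03 ± 0.0646 (adjusted p = 0.746) with PDGF-BB and -0.10 ± 0.0669 (adjusted p = 0.203) in unstimulated cells. Gusb, β-glucuronidase, was higher with TGF-β (0.31 ± 0.0431) and lower in unstimulated cells (-0.13 ± 0.043), a call lost on leaving out scramble unstimulated replicate 2 (-0.12, adjusted p = 0.0515) or Itgav siRNA unstimulated replicate 3 (-0.10, adjusted p = 0.0982). Man2b1, the lysosomal α-mannosidase, was lower with PDGF-BB (-0.35 ± 0.0519, adjusted p = 5.01e-06), at 114, 123 and 116 CPM with Itgav siRNA, against 159, 147 and 144 CPM with scramble siRNA. Glb1, β-galactosidase, was lower with PDGF-BB (-0.18 ± 0.0557) and in unstimulated cells (-0.27 ± 0.0566), and the PDGF-BB call was lost on leaving out Itgav siRNA PDGF-BB replicate 3 (-0.13, adjusted p = 0.0723).

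The 9 other hydrolases and lumenal proteins act on peptides, lipids and other substrates. With Itgav siRNA 6 were higher and 1 lower in TGF-β cells, all 9 were higher in PDGF-BB cells, and 7 were higher and 1 lower in unstimulated cells. The shares of all genes in the same order were 24.1%, 29.4% and 25.9% called higher and 24.3%, 29.9% and 27.5% called lower. Lgmn, legumain, an asparaginyl endopeptidase that processes cathepsins, was at 251, 251 and 244 CPM with Itgav siRNA and PDGF-BB, against 98.4, 89.5 and 89.9 CPM with scramble siRNA and PDGF-BB, a 2.69-fold rise (log2 1.43 ± 0.0448, adjusted p = 9.4e-17 in edgeR). With TGF-β it was at 176, 176 and 179 CPM with Itgav siRNA, against 96.5, 102 and 101 CPM, and in unstimulated cells at 171, 159.8 and 163 CPM, against 89.8, 95.3 and 88.6 CPM. All 9 siRNA libraries were above all 9 scramble libraries, and the log2 fold changes were 0.83 ± 0.045 with TGF-β and 0.85 ± 0.0449 without a growth factor. Lipa, the acid lipase of cholesteryl esters and triglycerides, was at 153, 160.3 and 152 CPM with Itgav siRNA and PDGF-BB, against 78.7, 84.8 and 87.00 CPM with scramble siRNA and PDGF-BB (0.89 ± 0.0436, adjusted p = 1.39e-13). In unstimulated cells it rose as well (0.50 ± 0.0433), while with TGF-β it was at 113, 118 and 119 CPM with Itgav siRNA, against 115, 118 and 119 CPM with scramble siRNA (-0.003 ± 0.0436, adjusted p = 0.966). The TGF-β libraries of Lipa overlapped. Asah1, acid ceramidase, rose with PDGF-BB (0.54 ± 0.0497) and in unstimulated cells (0.23 ± 0.0495) and fell with TGF-β (-0.14 ± 0.0493, adjusted p = 0.0244). The fall was lost on leaving out scramble TGF-β replicate 2 (-0.09, adjusted p = 0.174), Itgav siRNA TGF-β replicate 1 (-0.13, adjusted p = 0.0766) or Itgav siRNA TGF-β replicate 3 (-0.14, adjusted p = 0.0507).

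Psap, the precursor of the saposins that present sphingolipids to their hydrolases, was among the most abundant of these genes and rose in each medium, with log2 fold changes of 0.43 ± 0.0361 with TGF-β, 0.48 ± 0.036 with PDGF-BB and 0.39 ± 0.036 in unstimulated cells. Grn, progranulin, had log2 fold changes of 0.25 ± 0.0474 with TGF-β, 0.50 ± 0.047 with PDGF-BB and 0.49 ± 0.0469 in unstimulated cells. Npc2, which carries cholesterol out of the lysosome, had log2 fold changes of 0.45 ± 0.0464 with TGF-β, 0.23 ± 0.0462 with PDGF-BB and 0.39 ± 0.0462 in unstimulated cells. Smpd1, acid sphingomyelinase, had log2 fold changes of 0.36 ± 0.0441 with TGF-β, 0.23 ± 0.0439 with PDGF-BB and 0.37 ± 0.0438 in unstimulated cells. All 12 of these differences passed in edgeR, and the siRNA and scramble libraries did not overlap in any of them. How often libraries did not overlap over all genes was not counted. The rises of Ppt1, a thioesterase lost in an infantile neuronal ceroid lipofuscinosis, were 0.21 ± 0.0415 with TGF-β and 0.11 ± 0.0406 with PDGF-BB. The second call was lost on leaving out scramble PDGF-BB replicate 3 (0.09, adjusted p = 0.104) or Itgav siRNA PDGF-BB replicate 3 (0.10, adjusted p = 0.0903). Tpp1, a tripeptidyl peptidase, was higher with PDGF-BB (0.15 ± 0.0451) and lower in unstimulated cells (-0.19 ± 0.0452).

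All 5 membrane proteins were higher with Itgav siRNA in TGF-β cells, and 4 of the 5 in PDGF-BB and in unstimulated cells. Among all genes 24.1%, 29.4% and 25.9% were called higher in these media. Lamp1 was at 1445, 1448 and 1481 CPM with Itgav siRNA and TGF-β, against 1205, 1212 and 1246 CPM with scramble siRNA and TGF-β. Its log2 fold changes of 0.26 ± 0.0287 with TGF-β, 0.32 ± 0.0287 with PDGF-BB and 0.28 ± 0.0287 in unstimulated cells were close to each other. Cd63 had log2 fold changes of 0.45 ± 0.049 with TGF-β, 0.16 ± 0.0488 with PDGF-BB and 0.22 ± 0.0489 in unstimulated cells, and the calcium channel Mcoln1 had log2 fold changes of 0.18 ± 0.068 with TGF-β, 0.28 ± 0.0656 with PDGF-BB and 0.22 ± 0.067 in unstimulated cells. The call of Mcoln1 with TGF-β was lost when any 1 of 5 libraries was left out, most with scramble TGF-β replicate 2 out (0.15, adjusted p = 0.128). Cd68 was at 2.97, 3.26 and 3.26 CPM with Itgav siRNA and TGF-β, against 1.34, 1.13 and 1.16 CPM with scramble siRNA and TGF-β, a rise at low counts (1.39 ± 0.2, adjusted p = 4.97e-06). With PDGF-BB its values were 9.19, 11.4 and 9.85 CPM with Itgav siRNA, against 8.69, 9.73 and 9.81 CPM, and in unstimulated cells 1.77, 2.86 and 1.81 CPM, against 2.29, 1.98 and 1.99 CPM, and both pairs overlapped, with log2 fold changes of 0.11 ± 0.131 (adjusted p = 0.486) and 0.05 ± 0.186 (adjusted p = 0.854).

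Cd68 is best known in macrophages, so a list of 14 macrophage markers without it was examined. Of these, 5 passed the low-count filter, and no library exceeded 0.587 CPM for any of the other 9, which include Adgre1, Aif1 and C1qa to C1qc. The summed level of the list was 9.55 to 13.0 CPM with Itgav siRNA and TGF-β, against 8.33 to 10.1 CPM with scramble siRNA and TGF-β. It was 30.4 to 35.3 CPM with Itgav siRNA and PDGF-BB, against 15.2 to 17.8 CPM with scramble siRNA and PDGF-BB, and 33.7 to 37.2 CPM with Itgav siRNA in unstimulated cells, against 16.2 to 20.3 CPM with scramble siRNA. Mpeg1 made up much of the rise, at an average of 17.1 CPM with Itgav siRNA, against 1.34 CPM with scramble siRNA, in unstimulated cells. Csf1r went the other way there, at an average of 1.83 CPM with Itgav siRNA, against 3.06 CPM with scramble siRNA. Of the 5 tested markers, 2 were higher and 2 lower with Itgav siRNA in unstimulated cells. In PDGF-BB cells 2 were higher and 1 lower, and in TGF-β cells none was called. The shares of all genes called were 53.4%, 59.3% and 48.4% in the same order. The summed list and Cd68 did not move alike: Cd68 was several times higher in the PDGF-BB libraries of either siRNA than in the unstimulated ones, and the list was not. The part of these markers in the siRNA results was not tested.

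Lamp2, whose splice forms differ in their membrane-spanning end and include the receptor of chaperone-mediated autophagy, had log2 fold changes of 0.17 ± 0.0376 with TGF-β, 0.53 ± 0.0376 with PDGF-BB and 0.17 ± 0.0375 in unstimulated cells. The deposited transcript counts split it between transcripts Lamp2-201 and Lamp2-202 of GENCODE, and this split is an estimate that was not tested. Lamp2-201 was at 211, 209 and 219 CPM with Itgav siRNA and TGF-β, against 152, 155 and 159.7 CPM with scramble siRNA and TGF-β. It was at 228, 225 and 222 CPM with Itgav siRNA and PDGF-BB, against 149, 146 and 148 CPM, and at 226, 208 and 220.3 CPM with Itgav siRNA in unstimulated cells, against 149.9, 154 and 146 CPM. Lamp2-202 was at 382, 391 and 382 CPM with Itgav siRNA and TGF-β, against 382, 378 and 368 CPM, and at 401, 392 and 378 CPM with Itgav siRNA in unstimulated cells, against 373, 408 and 394 CPM. The Lamp2-201 libraries did not overlap in any medium, and those of Lamp2-202 lay close together or overlapped in these 2 media. With PDGF-BB Lamp2-202 was also higher, at 399, 455 and 423 CPM with Itgav siRNA, against 295, 321 and 300.3 CPM with scramble siRNA. The share of Lamp2 counts in Lamp2-201 was 34.6 to 36.2% with Itgav siRNA and TGF-β, against 28.1 to 30.2%, and 34.4 to 36.5% with Itgav siRNA in unstimulated cells, against 26.9 to 28.5%. With PDGF-BB the shares overlapped, at 32.9 to 35.98% with Itgav siRNA and 31.03 to 33.4% with scramble siRNA.

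**Figure D4:**
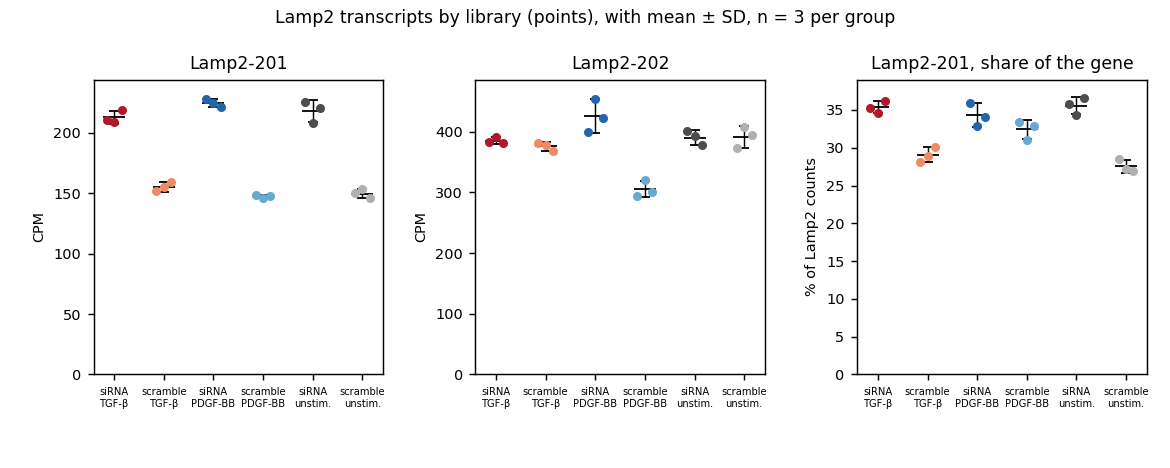
CPM of the transcripts Lamp2-201 and Lamp2-202 and the share of Lamp2 counts in Lamp2-201, in each library (points, with mean ± SD, n = 3 per group). Lamp2-201 is above its scramble libraries with Itgav siRNA in every medium, and its share of the gene is set apart with TGF-β and without a growth factor but overlaps with PDGF-BB.

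The 7 V-ATPase genes did not move as a block. The pump has a cytoplasmic V1 part, which splits ATP, and a membrane V0 part, which passes protons. With Itgav siRNA 3 of the 7 were higher and 2 lower in TGF-β cells, 3 were higher and 3 lower in PDGF-BB cells, and 1 was higher and 3 lower in unstimulated cells. These calls make up 71.4%, 85.7% and 57.1% of the 7, against 48.4%, 59.3% and 53.4% of all genes in the same order. Atp6v0a1 (chr11:101009452-101063719, plus strand) encodes an a subunit of V0. It was at 60.95, 62.2 and 60.97 CPM with Itgav siRNA and TGF-β, against 128, 129 and 127 CPM with scramble siRNA and TGF-β. With PDGF-BB it was at 59.9, 63.2 and 65.7 CPM with Itgav siRNA, against 113, 109 and 105 CPM, and in unstimulated cells at 52.3, 50.7 and 52.7 CPM, against 95.1, 99.3 and 96.4 CPM. All 9 siRNA libraries were below all 9 scramble libraries, with log2 fold changes of -1.06 ± 0.0439 with TGF-β, -0.79 ± 0.0435 with PDGF-BB and -0.90 ± 0.0444 in unstimulated cells. The main transcript, Atp6v0a1-202, averaged 43.7 CPM with Itgav siRNA and TGF-β, against 98.1 CPM with scramble siRNA and TGF-β. Atp6v0d1, the d subunit of V0, also fell in all 3 media, with log2 fold changes of -0.22 ± 0.0572 with TGF-β, -0.53 ± 0.0567 with PDGF-BB and -0.48 ± 0.0567 in unstimulated cells. Of the V1 subunits, Atp6v1b2 rose in all 3, with log2 fold changes of 0.45 ± 0.0449 with TGF-β, 0.64 ± 0.0435 with PDGF-BB and 0.28 ± 0.044 in unstimulated cells, at 161, 159.6 and 163 CPM with Itgav siRNA and PDGF-BB, against 97.01, 108 and 106 CPM with scramble siRNA and PDGF-BB. Atp6v1a, the catalytic subunit, rose with PDGF-BB (0.38 ± 0.0486), and its values were 0.04 ± 0.0487 (adjusted p = 0.545) with TGF-β and 0.05 ± 0.0487 (adjusted p = 0.381) in unstimulated cells. Atp6v1h, a regulatory subunit, rose with TGF-β (0.22 ± 0.0426) and with PDGF-BB (0.22 ± 0.0422). Atp6v1c1 was lower with PDGF-BB (-0.20 ± 0.0449) and in unstimulated cells (-0.14 ± 0.0456), where the call was lost on leaving out scramble unstimulated replicate 2 (-0.11, adjusted p = 0.084). The accessory protein gene Atp6ap1 was called higher with TGF-β (0.22 ± 0.038, adjusted p = 4.27e-05, edgeR).

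Sqstm1, the p62 receptor that links ubiquitylated cargo to autophagosomes, rose by nearly the same amount in each medium. It was at 784, 799 and 799.9 CPM with Itgav siRNA and TGF-β, against 460.2, 456 and 493 CPM with scramble siRNA and TGF-β. In PDGF-BB cells it was at 888, 871 and 809.9 CPM with Itgav siRNA, against 558, 515 and 508 CPM, and in unstimulated cells at 763, 752 and 725 CPM, against 469.9, 439 and 432 CPM. All 9 siRNA libraries were above all 9 scramble libraries, with log2 fold changes of 0.76 ± 0.046 with TGF-β, 0.70 ± 0.0458 with PDGF-BB and 0.74 ± 0.046 in unstimulated cells. Tfeb, the transcription factor of the lysosomal gene set, was at 8.004, 5.69 and 7.701 CPM with Itgav siRNA and TGF-β, against 7.25, 6.45 and 7.18 CPM with scramble siRNA and TGF-β. In unstimulated cells it was at 6.49, 6.28 and 7.21 CPM, against 6.51, 6.49 and 6.83 CPM. Its libraries overlapped in every medium, with edgeR values of 0.04 ± 0.141 (adjusted p = 0.858) with TGF-β, 0.14 ± 0.145 (adjusted p = 0.434) with PDGF-BB and 0.01 ± 0.14 (adjusted p = 0.958) in unstimulated cells. TFEB is known to be controlled largely by its place in the cell and by phosphorylation, which were not measured.

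The siRNA effect differed between media for some of the genes, by a test of the difference itself (an interaction term in the edgeR fit). Against unstimulated cells the effect with TGF-β was higher for 12 of the 41 genes and lower for 6, where 23.2% of all genes were called, 12.2% higher and 11% lower. The effect with PDGF-BB was higher for 12 and lower for 2, where 18.8% of all genes were called, 9.51% higher and 9.32% lower. The median difference of the 41 genes was 0.04 with TGF-β and 0.06 with PDGF-BB, and that of all genes was 0.003 and -0.01 in the same order. Ctsl had the difference with the smallest p, 0.80 ± 0.0443 (adjusted p = 2.56e-11) with TGF-β, beside 0.22 ± 0.0444 (adjusted p = 0.00136) with PDGF-BB. The effect on Cd68 was higher with TGF-β (1.34 ± 0.275, adjusted p = 0.000963), as were those on Gla (0.59 ± 0.105), Neu1 (0.58 ± 0.0938), Ctsh (0.53 ± 0.064), Ctsk (0.64 ± 0.135), Ctsd (0.45 ± 0.0541) and Gusb (0.44 ± 0.0609). The effect on Ctso was lower with TGF-β (-0.82 ± 0.128, adjusted p = 5.13e-05), as were those on Lipa (-0.50 ± 0.0615), Asah1 (-0.36 ± 0.0699), Hexa (-0.35 ± 0.0734), Manba (-0.32 ± 0.0829) and Grn (-0.23 ± 0.0666). With PDGF-BB the effect was higher on Ctsk (0.997 ± 0.134, adjusted p = 2.15e-05), Lgmn (0.57 ± 0.063), Gla (0.44 ± 0.101), Ctsb (0.41 ± 0.0547), Lipa (0.40 ± 0.0614), Lamp2 (0.35 ± 0.0531) and Asah1 (0.31 ± 0.0701). It was lower on Man2b1 (-0.31 ± 0.0735) and Ctsf (-0.33 ± 0.0955, adjusted p = 0.0181). The Ctsf difference was lost on leaving out scramble unstimulated replicate 3 (-0.30, adjusted p = 0.0546) or scramble PDGF-BB replicate 1 (-0.28, adjusted p = 0.0542). For Sqstm1 the differences were 0.02 ± 0.0647 (adjusted p = 0.887) with TGF-β and -0.04 ± 0.0646 (adjusted p = 0.728) with PDGF-BB, and for Lamp1 -0.02 ± 0.0406 (adjusted p = 0.8) and 0.04 ± 0.0406 (adjusted p = 0.526). Those of Tfeb were 0.03 ± 0.198 (adjusted p = 0.952) and 0.13 ± 0.202 (adjusted p = 0.722), and the PDGF-BB difference of Cd68 was 0.06 ± 0.228 (adjusted p = 0.884). The same unstimulated libraries enter both differences.

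TGF-β in scramble cells moved the genes in both directions. Compared with unstimulated scramble cells, 11 of the 41 were higher and 16 lower with TGF-β, where 48.3% of all genes were called, 23.4% higher and 24.8% lower, and the median log2 fold change was 0.01 for the 41 genes and -0.01 for all genes. Of the cathepsins 3 were higher and 6 lower. Ctsl rose to 1243, 1259 and 1267 CPM with TGF-β, against 783, 799.7 and 804 CPM in unstimulated cells (0.66 ± 0.0315, adjusted p = 8.63e-14 in edgeR). Ctsk was at 22.6, 23.3 and 21.99 CPM with TGF-β, against 17.1, 18.6 and 19.6 CPM (0.30 ± 0.0939, adjusted p = 0.0115), and the call was lost on leaving out scramble unstimulated replicate 1 (0.25, adjusted p = 0.0632). Ctsf fell to 31.3, 35.6 and 38.3 CPM with TGF-β, against 52.8, 47.1 and 46.00 CPM in unstimulated cells (-0.47 ± 0.0705, adjusted p = 7.7e-06), and Ctso fell as well (-0.39 ± 0.0931). Asah1 had the largest rise of the 41 genes, at 763, 822 and 709 CPM with TGF-β, against 457, 484 and 489 CPM in unstimulated cells (0.68 ± 0.0496, adjusted p = 1.19e-10). Manba (0.31 ± 0.0621), Lipa (0.24 ± 0.0437) and Atp6v0a1 (0.40 ± 0.0424) rose too. Man2b1 (-0.36 ± 0.0527), Ppt1 (-0.32 ± 0.0413), Grn (-0.27 ± 0.0473) and Atp6v1b2 (-0.24 ± 0.0449) fell. Cd68 was at 1.34, 1.13 and 1.16 CPM with TGF-β, against 2.29, 1.98 and 1.99 CPM in unstimulated cells (-0.79 ± 0.21, adjusted p = 0.00343). Lamp1 was slightly lower (-0.10 ± 0.0287, adjusted p = 0.00702), a call lost on leaving out scramble TGF-β replicate 1 (-0.08, adjusted p = 0.0533) and with no low-count filter (-0.10, adjusted p = 0.0578). The values of Sqstm1 (0.07 ± 0.046, adjusted p = 0.21) and Tfeb (0.07 ± 0.14, adjusted p = 0.699) did not pass.

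PDGF-BB in scramble cells raised more of the genes than it lowered. With PDGF-BB 15 of the 41 were higher and 7 lower than in unstimulated scramble cells, where 36.1% of all genes were called, 16.9% higher and 19.2% lower, with a median log2 fold change of 0.05 for the 41 genes and 0.01 for all genes. Of the glycosidases 5 were higher and 1 lower, and of the 7 pump genes 3 were higher and none lower. Cd68 was at 8.69, 9.73 and 9.81 CPM with PDGF-BB, against 2.29, 1.98 and 1.99 CPM in unstimulated cells, a 4.49-fold rise with no overlap (2.17 ± 0.156, adjusted p = 2.73e-10 in edgeR). The summed macrophage markers were 15.2 to 17.8 CPM in the same PDGF-BB libraries, against 16.2 to 20.3 CPM in the unstimulated ones. Ctsh was at 489.6, 441 and 454 CPM with PDGF-BB, against 303, 287 and 294 CPM in unstimulated cells (0.65 ± 0.0452, adjusted p = 1.51e-10). Gla (0.49 ± 0.0735), Manba (0.33 ± 0.0611), Gusb (0.33 ± 0.0426), Atp6v1c1 (0.28 ± 0.045), Cd63 (0.28 ± 0.0489), Ctsa (0.26 ± 0.0452) and Sqstm1 (0.24 ± 0.0459) rose as well. Ctsl fell to 621, 629 and 635 CPM with PDGF-BB, against 783, 799.7 and 804 CPM in unstimulated cells (-0.34 ± 0.0315, adjusted p = 1.53e-08). Asah1 (-0.30 ± 0.0497), Lamp2 (-0.26 ± 0.0376), Lipa (-0.25 ± 0.0441), Hexa (-0.20 ± 0.0522) and Lamp1 (-0.10 ± 0.0287) also fell. The Lamp1 call was lost on leaving out scramble unstimulated replicate 2 (-0.09, adjusted p = 0.0534) or scramble PDGF-BB replicate 3 (-0.09, adjusted p = 0.0529), with no low-count filter (-0.10, adjusted p = 0.0719) and in a fit of only the 2 groups (-0.09, adjusted p = 0.0774). Ctso was lower (-0.28 ± 0.0908, adjusted p = 0.0191) with overlapping libraries, and that call was lost on leaving out scramble PDGF-BB replicate 1 (-0.18, adjusted p = 0.134), scramble unstimulated replicate 2 (-0.26, adjusted p = 0.0636) or scramble unstimulated replicate 3 (-0.21, adjusted p = 0.127), and in a fit of only the 2 groups (-0.28, adjusted p = 0.0758). Ctsk (-0.02 ± 0.0947, adjusted p = 0.918) and Tfeb (-0.35 ± 0.143, adjusted p = 0.0585) did not pass.

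**Figure D5:**
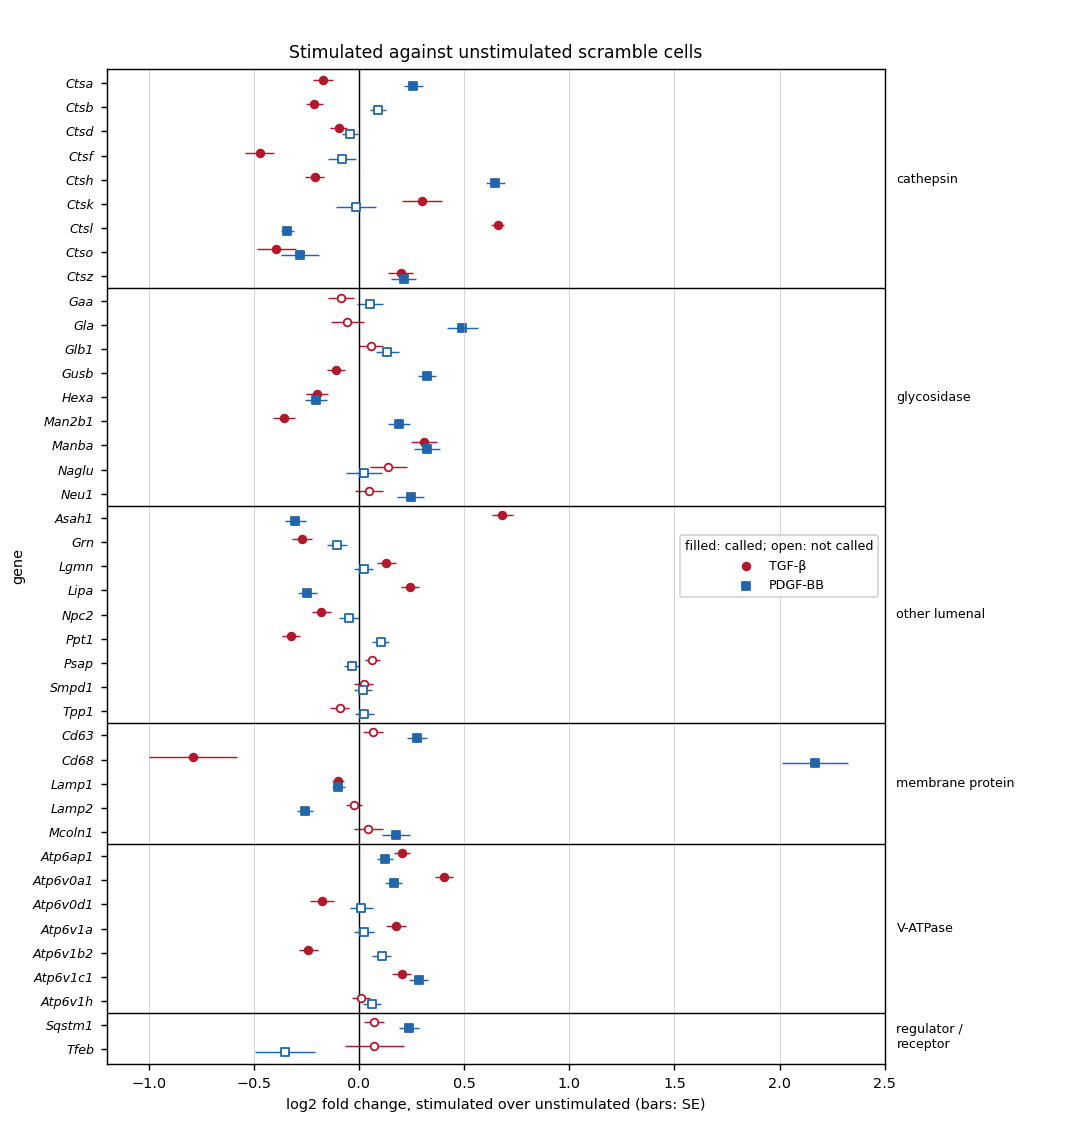
Log2 fold changes of TGF-β and of PDGF-BB over unstimulated cells (horizontal axis, bars are standard errors) in scramble siRNA cells, for the 41 genes (vertical axis, by role). Filled symbols passed the test; Ctsl, Asah1 and Lipa are filled right of 0 with TGF-β and left of 0 with PDGF-BB, and Cd68, Ctsa, Ctsh and Man2b1 the other way round.

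The 2 growth factors were compared directly in scramble cells, since both comparisons above share the unstimulated libraries. With TGF-β 10 of the 41 genes were higher than with PDGF-BB and 17 were lower, where 56.9% of all genes were called, 28% higher and 29% lower, and the median log2 fold change was -0.08 for the 41 genes and -0.02 for all genes. Ctsl was higher with TGF-β (0.9997 ± 0.0317, adjusted p = 3.77e-17 in edgeR), and so were Asah1 (0.98 ± 0.0499, adjusted p = 1.67e-13), Lipa (0.49 ± 0.0441), Ctsk (0.31 ± 0.0942) and Atp6v0a1 (0.24 ± 0.0422). Cd68 was lower with TGF-β (-2.96 ± 0.176, adjusted p = 2.77e-12), and so were Ctsh (-0.86 ± 0.0455, adjusted p = 3.6e-13), Gla (-0.55 ± 0.075), Man2b1 (-0.55 ± 0.0526), Gusb (-0.44 ± 0.0429), Ctsa (-0.43 ± 0.0455) and Ppt1 (-0.43 ± 0.0412). Sqstm1 was lower (-0.17 ± 0.0459, adjusted p = 0.00398), and the value of Lamp1 was -0.001 ± 0.0287 (adjusted p = 0.982). Of the glycosidases none was higher with TGF-β and 4 were lower. Tfeb was higher with TGF-β, at 7.25, 6.45 and 7.18 CPM with TGF-β, against 5.66, 4.53 and 5.32 CPM with PDGF-BB (0.43 ± 0.144, adjusted p = 0.0156). This was its only call in the 10 comparisons, and it was lost on leaving out scramble PDGF-BB replicate 2 (0.35, adjusted p = 0.0702).

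In Itgav siRNA cells the growth factors again moved many of the genes. Compared with unstimulated siRNA cells, 19 of the 41 were higher and 11 lower with TGF-β, where 57.5% of all genes were called, 27.9% higher and 29.6% lower. With PDGF-BB 24 were higher and 6 lower, where 36.4% of all genes were called, 17.2% higher and 19.2% lower. The median log2 fold changes of the 41 genes were 0.10 with TGF-β and 0.20 with PDGF-BB, and those of all genes were -0.02 with each. Ctsl was at 2757, 2740 and 2861 CPM with TGF-β in siRNA cells, against 1046, 986 and 1008 CPM in unstimulated siRNA cells (1.46 ± 0.0319, adjusted p = 4.95e-20 in edgeR), and it fell with PDGF-BB (-0.12 ± 0.0314, adjusted p = 0.00466). Ctsk rose with both factors, by 0.94 ± 0.0963 with TGF-β and 0.98 ± 0.0953 with PDGF-BB. Ctso fell to 19.04, 18.4 and 17.4 CPM with TGF-β, against 43.9, 39.4 and 44.1 CPM in unstimulated siRNA cells (-1.21 ± 0.0873, adjusted p = 5.62e-11). Neu1 (0.62 ± 0.0659), Gla (0.53 ± 0.071), Atp6ap1 (0.47 ± 0.0381) and Ctsd (0.36 ± 0.0383) rose with TGF-β, and Hexa (-0.55 ± 0.0515), Ctsf (-0.53 ± 0.0678), Grn (-0.50 ± 0.047), Gaa (-0.30 ± 0.0601), Lipa (-0.26 ± 0.0432) and Lamp1 (-0.12 ± 0.0287) fell. With PDGF-BB Cd68 (2.23 ± 0.157, adjusted p = 1.22e-10), Gla (0.93 ± 0.0695), Lgmn (0.60 ± 0.0435), Ctsh (0.58 ± 0.0449), Ctsb (0.51 ± 0.0387) and Gusb (0.47 ± 0.0428) rose. Of the 7 pump genes 5 rose and none fell with TGF-β, and 6 rose and none fell with PDGF-BB, with Atp6v1b2 at 0.46 ± 0.0433 and Atp6v1a at 0.35 ± 0.0486. Hexa (-0.41 ± 0.0512), Ctsf (-0.41 ± 0.0668) and Npc2 (-0.21 ± 0.0461) fell with PDGF-BB. Smpd1 (-0.12 ± 0.0436, adjusted p = 0.0374) and Ctsd (-0.11 ± 0.0383, adjusted p = 0.0272) were lower by small amounts. The Smpd1 call was lost on leaving out Itgav siRNA unstimulated replicate 1 (-0.12), 2 (-0.13) or 3 (-0.12) or Itgav siRNA PDGF-BB replicate 2 (-0.10) or 3 (-0.11), with adjusted p of 0.0539 to 0.122 in edgeR. The Ctsd call was lost on leaving out Itgav siRNA unstimulated replicate 1 (-0.10, adjusted p = 0.0781) or Itgav siRNA PDGF-BB replicate 1 (-0.11, adjusted p = 0.0529) or replicate 3 (-0.10, adjusted p = 0.0844). Both were lost with DESeq2 size factors as well, at adjusted p of 0.0616 for Smpd1 and 0.0555 for Ctsd, and with a filter on a mean of at least 1 CPM, at 0.0733 for Smpd1 and 0.0695 for Ctsd. The Smpd1 call was also lost with no low-count filter (adjusted p = 0.0727) and in a fit of only the 2 groups (adjusted p = 0.0619). Sqstm1 rose with PDGF-BB (0.20 ± 0.0456, adjusted p = 0.0015). The values that did not pass were 0.09 ± 0.0456 (adjusted p = 0.1) for Sqstm1 with TGF-β, -0.06 ± 0.0287 (adjusted p = 0.138) for Lamp1 with PDGF-BB, and 0.10 ± 0.14 (adjusted p = 0.574) with TGF-β and -0.23 ± 0.142 (adjusted p = 0.23) with PDGF-BB for Tfeb. Cd68 was higher with TGF-β in siRNA cells (0.55 ± 0.178, adjusted p = 0.0112), a call lost on leaving out Itgav siRNA unstimulated replicate 1 (0.43, adjusted p = 0.0661) or replicate 3 (0.44, adjusted p = 0.0639).

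Other genes of the pathway were taken from lists of lysosomal hydrolases, membrane and transport genes, pump subunits, sorting genes, nutrient-sensing genes, autophagy genes and cathepsin inhibitors. Of 27 other hydrolases tested, 16 were higher and 4 lower with Itgav siRNA in TGF-β cells, 18 were higher and 6 lower in PDGF-BB cells, and 17 were higher and 5 lower in unstimulated cells, with median log2 fold changes of 0.23 with TGF-β, 0.34 with PDGF-BB and 0.26 in unstimulated cells. The calls make up 74.1%, 88.9% and 81.5% of the 27, against 48.4%, 59.3% and 53.4% of all genes in the same order of media, and the median of all genes was 0.01 in each medium. Ctsc, dipeptidyl peptidase 1, was at 88.3, 92.01 and 90.8 CPM with Itgav siRNA and TGF-β, against 32.1, 31.02 and 28.7 CPM with scramble siRNA and TGF-β (1.56 ± 0.0669, adjusted p = 2.19e-14 in edgeR). It also rose with TGF-β in scramble cells (1.48 ± 0.0783). Ids, the iduronate sulfatase of heparan and dermatan sulfate, went the other way, at 97.2, 101 and 97.1 CPM with Itgav siRNA and TGF-β, against 263, 274 and 236 CPM with scramble siRNA and TGF-β. Its log2 fold changes were -1.39 ± 0.0567 with TGF-β, -1.15 ± 0.0568 with PDGF-BB and -1.44 ± 0.0561 in unstimulated cells, with no overlap in any medium. Of 16 membrane and transport genes tested, 8 were higher and 1 lower with TGF-β, and 11 were higher and 1 lower with PDGF-BB. In unstimulated cells 8 were higher and 2 lower. These calls make up 56.2%, 75% and 62.5% of the 16, against 48.4%, 59.3% and 53.4% of all genes. Scarb2, the sorting receptor of β-glucocerebrosidase, had log2 fold changes of 0.44 ± 0.041 with TGF-β, 1.29 ± 0.0411 with PDGF-BB and 0.70 ± 0.0412 in unstimulated cells. Of 7 sorting genes 2 were higher and 1 lower with TGF-β, and 6 were higher and none lower with PDGF-BB. In unstimulated cells 4 were higher and 1 lower. These calls make up 42.9%, 85.7% and 71.4% of the 7, against 48.4%, 59.3% and 53.4% of all genes. The TGF-β share is thus below that of all genes.

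Of 14 other pump subunits tested, 7 were higher and 2 lower with Itgav siRNA in TGF-β cells, 4 were higher and 5 lower in PDGF-BB cells, and 3 were higher and 4 lower in unstimulated cells. These calls make up 64.3%, 64.3% and 50% of the 14, against 48.4%, 59.3% and 53.4% of all genes, so the last 2 shares are near the background. Beside the fall of Atp6v0a1, its paralog Atp6v0a2 was at 132, 139 and 132 CPM with Itgav siRNA and TGF-β, against 64.1, 64.9 and 59.8 CPM with scramble siRNA and TGF-β. Its log2 fold changes were 1.09 ± 0.0546 with TGF-β, 0.88 ± 0.0549 with PDGF-BB and 0.92 ± 0.0559 in unstimulated cells. Atp6v0d2, the d paralog known from osteoclasts and macrophages, was at 7.49, 9.44 and 9.198 CPM with Itgav siRNA and TGF-β, against 0.116, 0.215 and 0.058 CPM with scramble siRNA and TGF-β. The scramble libraries held 1 to 4 counts each, too few for a fold change. Its PDGF-BB libraries were at 5.13, 5.89 and 6.07 CPM with Itgav siRNA, against 1.72, 1.03 and 1.02 CPM with scramble siRNA (2.18 ± 0.23, adjusted p = 3.92e-08 in edgeR). In unstimulated cells all 6 libraries were at 0.457 CPM or below.

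Of 16 genes of the Tfeb family and of nutrient sensing by mTORC1, 8 were higher and 2 lower with Itgav siRNA in TGF-β cells, 9 were higher and 2 lower in PDGF-BB cells, and 8 were higher and 3 lower in unstimulated cells. These calls make up 62.5%, 68.8% and 68.8% of the 16, against 48.4%, 59.3% and 53.4% of all genes in the same order. Rragd, a Rag GTPase that is itself known as a target of these factors, was at 43.6, 41.9 and 43.3 CPM with Itgav siRNA and TGF-β, against 11.3, 13.3 and 13.2 CPM with scramble siRNA and TGF-β. With PDGF-BB it was at 69.3, 85.01 and 79.98 CPM with Itgav siRNA, against 17.7, 22.2 and 17.1 CPM, and in unstimulated cells at 56.9, 56.5 and 52.2 CPM, against 20.9, 25.9 and 22.1 CPM. The libraries did not overlap, with log2 fold changes of 1.77 ± 0.104, 2.04 ± 0.0934 and 1.27 ± 0.0926. Fnip2, a partner of folliculin, was at 34.95, 40.6 and 36.9 CPM with Itgav siRNA and PDGF-BB, against 11.6, 13.2 and 10.3 CPM with scramble siRNA and PDGF-BB (1.68 ± 0.112, adjusted p = 2.28e-11 in edgeR). Lamtor2, a part of the Ragulator scaffold, was lower in all 3 media (-0.46 ± 0.0737 with TGF-β, -0.62 ± 0.0714 with PDGF-BB and -0.42 ± 0.0708 in unstimulated cells). Of 17 autophagy genes 9 were higher and 5 lower with TGF-β, and 8 were higher and 5 lower with PDGF-BB. In unstimulated cells 8 were higher and 4 lower. These calls make up 82.4%, 76.5% and 70.6% of the 17, against 48.4%, 59.3% and 53.4% of all genes. The kinase gene Ulk1 was higher (0.99 ± 0.077, 0.82 ± 0.076 and 1.03 ± 0.0772 in the same order) and the membrane scramblase gene Atg9a was lower (-0.70 ± 0.0646, -1.01 ± 0.0663 and -0.97 ± 0.0672). Of 3 cathepsin inhibitors 1 was higher in each medium, a count near the background. The shares of all genes called higher were 24.1% with TGF-β, 29.4% with PDGF-BB and 25.9% in unstimulated cells. The gene was Cst6, with log2 fold changes of 1.63 ± 0.153 with TGF-β, 1.08 ± 0.123 with PDGF-BB and 0.78 ± 0.174 in unstimulated cells. Cstb was lower with PDGF-BB (-0.12 ± 0.0471) and in unstimulated cells (-0.19 ± 0.0477), where 29.9% and 27.5% of all genes were called lower.

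The smooth muscle markers moved alongside these changes. The 7 markers summed to 3189 to 3348 CPM with Itgav siRNA and TGF-β, against 6471 to 7024 CPM with scramble siRNA and TGF-β. They summed to 337 to 347 CPM with Itgav siRNA and PDGF-BB, against 879 to 907 CPM with scramble siRNA and PDGF-BB, and to 905 to 1013 CPM with Itgav siRNA in unstimulated cells, against 1960 to 2005 CPM with scramble siRNA. All 7 were lower with Itgav siRNA in TGF-β cells, 6 of the 7 in PDGF-BB cells and 5 of the 7 in unstimulated cells. Of all genes, 24.3%, 29.9% and 27.5% were called lower in the same order. The part of these markers in the lysosomal results was not tested. A list of 10 adventitial fibroblast markers summed to 810.2 to 872 CPM with Itgav siRNA and TGF-β, against 887 to 963 CPM with scramble siRNA and TGF-β. It summed to 1123 to 1174 CPM with Itgav siRNA and PDGF-BB, against 975 to 1068 CPM, and to 1046 to 1074 CPM with Itgav siRNA in unstimulated cells, against 840.5 to 906 CPM. With TGF-β 3 of the 10 were called higher and 2 lower, and 7 had a log2 fold change above 0 although the sum was lower. With PDGF-BB 6 were higher and 1 lower, and in unstimulated cells 7 were higher and 1 lower. Of all genes, 24.1%, 29.4% and 25.9% were called higher in the same order. A list of 10 endothelial markers summed to 86.2 to 123 CPM in the siRNA libraries, against 104 to 143 CPM in the scramble libraries, and 7 lymphocyte markers summed to at most 0.352 CPM in any library.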

How the data were processed

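RNA was measured in 18 libraries. Estimated counts per gene were deposited by the authors; per the submitters' processing notes, HISAT2 2.2.1, StringTie 2.1.6 and the mm10 build were used, with no roles stated, and 76.2% of the values above 0 were exactly whole, with no tolerance. Estimated transcript counts, also deposited by the authors, gave the Lamp2 and Atp6v0a1 splits and the TPM, with lengths from GENCODE M21, whose transcripts held 98.86% of them. Gene counts were rounded and fitted with edgeR 4.0.16 in R 4.3.3 (quasi-likelihood test, TMM scaling, 1 mean per group, 12 residual degrees of freedom) over the genes that passed filterByExpr at a minimum count of 10, with Benjamini-Hochberg adjustment over all of them. CPM were scaled by TMM. Rows with an ID and no symbol (525, with 0.178% of counts) stayed in. No 2 libraries of a group agreed within sampling noise (chi-square per degree of freedom at least 2.2). The 41 genes and all lists were chosen with earlier results of these data known. Values were given for the 6 called genes that rose most and the 6 that fell most in each comparison, at a mean of at least 5 CPM, for Tfeb, Sqstm1, Lamp1, Ctsk, Ctsl and Cd68, and for other members, chosen after their values were seen; of each other pathway list, for up to 3 called genes with the smallest p in each direction, of which some are named. Alternatives were 2 other filters, DESeq2 size factors, DESeq2 1.42.0, a fit of only the groups compared, a replicate block and each library left out.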

Additional observations from a re-analysis of the deposited data

Results flagged for a closer look

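The difference between media was tested by the interaction term of the edgeR fit. This test called 18 of the 41 genes with TGF-β, against 23.2% of all genes, and 14 with PDGF-BB, against 18.8%. Of these siRNA effects, 22 were picked by the rule on the largest changes and the fixed genes. Values are differences of log2 fold changes, and the unstimulated libraries enter all of them. Against unstimulated cells, the effect of Itgav siRNA with TGF-β was higher on Cd68 by 1.34, on Ctsl by 0.80, on Ctsk by 0.64, on Gla by 0.59, on Neu1 by 0.58, on Ctsh by 0.53 and on Ctsd by 0.45. For Ctso the difference with TGF-β was -0.82, for Lipa -0.50, for Asah1 -0.36, for Hexa -0.35, for Manba -0.32 and for Grn -0.23. With PDGF-BB the effect was higher on Ctsk by 1, on Lgmn by 0.57, on Gla by 0.44, on Ctsb by 0.41, on Lipa by 0.40, on Lamp2 by 0.35 and on Ctsl by 0.22. The PDGF-BB differences of Ctsf (-0.33) and Man2b1 (-0.31) were negative. The differences of Lipa had opposite signs with the 2 factors, and so had those of Asah1, whose PDGF-BB difference was 0.31. The groups had 3 libraries each, too few for a test of single libraries that stand apart.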

How the results depend on the processing

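The count of the 41 genes called stayed within 1.5 times its main value in every comparison and under every alternative run. Leaving out 1 library at a time gave 29 to 32 called genes for the siRNA with TGF-β (31 with all), 33 to 36 with PDGF-BB (35 with all) and 30 to 33 in unstimulated cells (33 with all). For TGF-β in scramble cells it gave 22 to 26 (27 with all), for PDGF-BB 19 to 23 (22 with all), and for TGF-β against PDGF-BB 22 to 27 (27 with all). Other settings could fall outside these ranges. PDGF-BB in scramble cells gave 26 with DESeq2 size factors and 26 with the filter on a mean of at least 1 CPM. Stability over all settings was counted only for values picked by the rule on the largest changes and the fixed genes. Of these, 1971 kept their direction and their side of the threshold, 36 were no longer called and 8 became called. Lost calls of other members are given above and are not among the 36. They include the siRNA calls of Mcoln1 with TGF-β, Ctsd and Ppt1 with PDGF-BB, and Gusb and Atp6v1c1 in unstimulated cells. A further 31 of the counted values changed sign, and none of those that changed sign was called. Ctsk with PDGF-BB in scramble cells was 0.007 under a mean of at least 1 CPM, and Lamp1 with TGF-β against PDGF-BB was 0 with no low-count filter, 0 with DESeq2 size factors and 0.003 in a fit of only the groups compared. With 1 library left out, Ctsk with PDGF-BB ranged over -0.071 to 0.035 and Lamp1 with TGF-β against PDGF-BB over -0.011 to 0.017. The siRNA effect on Cd68 ranged over -0.214 to 0.171 in unstimulated cells, and its PDGF-BB difference over -0.06 to 0.325. For Sqstm1 the TGF-β difference ranged over -0.02 to 0.043. For Tfeb the siRNA effect ranged over -0.06 to 0.172 with TGF-β and -0.045 to 0.058 in unstimulated cells, and its differences over -0.075 to 0.156 with TGF-β and -0.006 to 0.248 with PDGF-BB. The cause of these changes was not tested. With a replicate block 32 genes were called for the siRNA with TGF-β, 35 with PDGF-BB and 33 in unstimulated cells. Libraries that share a number did not deviate together (correlations from -0.045 to 0.097), so the numbers were not taken to pair them. The block brought Ctsk under the siRNA with TGF-β and Tfeb with PDGF-BB in scramble cells (-0.36, edgeR adjusted p = 0.0247) past the threshold. DESeq2 size factors moved the median of all genes by at most 0.018. The other genes of the pathway were fitted under the main settings only. Low counts limit Cd68, Tfeb, Ctso and Ctsk most, and the 3 libraries per group limit all comparisons.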
